A study of Mus musculus musculus x M. m. domesticus and Mus musculus domesticus and Mus musculus with 12 samples.

Results

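The somatic genes of the testis described here are the 142 genes that the study's supplementary gene table assigns to the somatic cell class and places on chromosomes 1 to 5. They are 142 of the 7000 genes with expression values. Genes of a short list of sterility-correlated genes in the study's supplement were to be left out, but that list holds postmeiotic and mitotic genes and no somatic ones, so that nothing was removed. The study's wider set of sterility-correlated genes was not used here and may include members. The table rows used here number 1997 and cover chromosomes 1 to 4 and part of chromosome 5. Of these rows, 1102 carry a cell type class. The members lie on chromosome 1 (26 genes), chromosome 2 (39), chromosome 3 (31), chromosome 4 (24) and chromosome 5 (22). All 142 had passed the authors' detection filter in every male, and no further filter was applied.

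Somatic cells are the cells of the testis that do not become sperm. Sertoli cells line the seminiferous tubules and nourish the developing germ cells, Leydig cells between the tubules make testosterone, and peritubular myoid cells wrap the tubules. The class does not cover all of these evenly. In the published data behind it, a gene was called somatic when its strongest induction was in the Sertoli cell fraction, as against fractions of mitotic, meiotic and postmeiotic germ cells, so that a somatic gene may also be expressed in germ cells. The files identify the members by Ensembl gene number and do not pair these numbers with gene names. The function of single members is therefore not given, and the label could not be set against named Sertoli cell markers.

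The 12 males, aged 60 days, belonged to 4 F1 genotypes, 3 males in each, and a genotype is written with the mother first. RNA was taken from the whole testis. DxD males came from LEWES/EiJ mothers and WSB/EiJ fathers, both strains of M. domesticus, and MxM males came from PWK/PhJ mothers and CZECHII/EiJ fathers, both strains of M. musculus. The reciprocal hybrids were the fertile DxM (LEWES/EiJ mother, PWK/PhJ father) and the sterile MxD (PWK/PhJ mother, LEWES/EiJ father). All males were F1 crosses of wild-derived inbred strains, and neither WSB/EiJ nor CZECHII/EiJ contributed to the hybrids. The 2 hybrids carry the same pair of alleles at every autosomal gene. They differ in the X and Y chromosomes, in the mitochondria and in the parent that each allele came from. The study's histology describes testes of MxD males as poor in germ cells, above all in postmeiotic ones. In whole testis, fewer cells of a type and less RNA per cell cannot be told apart.

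Expression is given on the log2 scale, where a difference of 1 is a doubling, and all arrays share 1 distribution of values with a median of 8.14. The somatic genes lay low in this distribution. Their mean over 12 males had a median of 6.65 with quartiles of 5.95 and 7.52, against a median of 8.13 and quartiles of 7.04 and 9.40 over all genes. When the 7000 genes were ordered by mean and divided into 4 equal parts, 85 somatic genes (59.9%) fell in the dimmest part, 38 in the next, 14 in the third and 5 in the brightest. The lowest member had a mean of 4.07 and the highest of 10.9. These values compare signals of different probes and do not rank RNA amounts between genes. Males of 1 genotype differed by a median SD of 0.10 for DxD and for DxM, 0.17 for MxM and 0.15 for MxD, and over all genes by 0.08, 0.11, 0.15 and 0.12. The distance from the lowest to the highest genotype mean had a median of 0.38 in the somatic genes and 0.34 over all genes.

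The deviation of each male from the median of the 12 males was averaged over the 142 genes. The 3 MxD males stood at 0.06, 0.06 and 0.08, and the 3 DxD males at -0.09, -0.04 and -0.04. The DxM males stood at -0.04, 0.01 and -0.04. The MxM males were spread over a wider range, at -0.05, -0.03 and 0.10. All MxD males were thus above all DxD and DxM males, but MxM replicate 3 was above every MxD male. This male was the highest of the 12 in 40 somatic genes (28.2%, against 23.8% of all genes), and MxD replicate 3 was the highest in 31 (21.8%, against 14.1%). In 131 other genes of the series MxM replicate 3 was the lowest male by 1 log2 unit or more, and none of these is a somatic member.

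**Figure D1:**
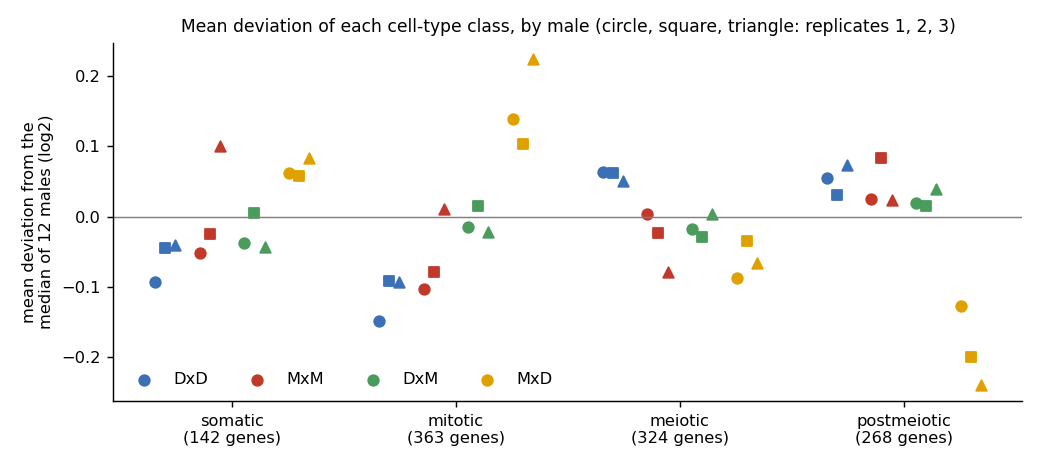
Mean deviation of each male from the median of the 12 males in log2 units (vertical axis) for the somatic genes and the 3 germ cell classes of the same table rows (horizontal axis), with 1 point per male, coloured by genotype. In the somatic class the MxD males sit at 0.06 to 0.08, MxM replicate 3 at 0.10 and all DxD males below 0. In the postmeiotic class the MxD males sit lowest, at -0.24 to -0.13.

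The germ cell classes of the same table rows moved beside the somatic genes. In MxD the mean deviation was 0.15 ± 0.06 (SD, n = 3) for 363 mitotic genes, -0.06 ± 0.03 for 324 meiotic genes and -0.19 ± 0.06 for 268 postmeiotic genes, where the somatic genes had 0.07 ± 0.01. In DxM the corresponding means were -0.01, -0.01, 0.02 and -0.02. The somatic genes thus lay on the same side as the mitotic genes in MxD, with a smaller deviation. The part of these shifts in the values of the somatic genes was not tested. Because every array was scaled to the same distribution, each value is relative to the other genes of that array. One gene on the marker lists could be matched by name, Cyp17a1, an enzyme of androgen synthesis in Leydig cells. It is on chromosome 19 and is no member of the class. It is on the short list of sterility-correlated genes, which was chosen on these samples. The study describes that list as postmeiotic genes higher and mitotic genes lower in sterile males. A gene higher in MxD thus stands there as postmeiotic, not as somatic, and Cyp17a1 says nothing about the somatic class. Its level was 9.97 ± 0.63 in MxM, 10.1 ± 0.41 in DxD, 10.6 ± 0.14 in DxM and 11.2 ± 0.06 in MxD (SD, n = 3), and MxD was higher than DxD (1.09, SE 0.27, adjusted p = 0.010, limma) and MxM (1.26, SE 0.27, adjusted p = 0.0053). The difference from DxM did not pass the test (0.67, SE 0.27, adjusted p = 0.18). As the gene was listed on the values of these same males, these p-values are no independent support.

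Which somatic genes differed between the sterile and the fertile hybrid was asked first, since these males share their autosomal alleles. Of the 142 genes, 7 were higher and 2 lower in MxD than in DxM (limma on all 12 males, Benjamini-Hochberg adjustment over all 7000 genes at 5%). These 9 genes are 6.34% of the members, beside 6.5% of all genes called in this comparison (3.0% higher and 3.5% lower in MxD). In this fit the number of calls was therefore near the background, while its split by direction was 7 to 2 in the members and about even over all genes. Over the class the median difference was 0.11 with quartiles of -0.03 and 0.23, and 99 members (69.7%) had the higher mean in MxD, beside a median near 0 and 49.9% over all genes. No test was made of this shift. In the mitotic, meiotic and postmeiotic classes the median differences were 0.16, -0.04 and -0.20, and differences between classes were not tested. With the replicate number as a block, 33 of the 142 members were called (27 higher, 6 lower), among them all 9 above. This is a larger share than the 17.2% of all genes, so that the count was not near the background with the block. The excess was not tested, and the split by direction over all genes is not given for the block. By the test of the study's methods with adjusted p, 0 members were called with unequal or with equal variances. An unadjusted limma p under 0.05 was found for 39 members, beside 1528 of all 7000 genes. The count also rested on single males. It was 19 without MxM replicate 3, 14 without MxM replicate 1, 3 without DxM replicate 1, 4 without DxM replicate 2 or 3, and 3 without MxD replicate 3. Shares over all genes without these males are not given, so these moves cannot be set against the background.

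The largest positive difference between the hybrids was that of ENSMUSG00000005973 on chromosome 2. The MxD males had values of 6.26, 6.23 and 6.27 and the DxM males of 5.51, 5.51 and 5.64, a difference of 0.70 (SE 0.15, adjusted p = 0.017). The DxD males stood at 5.35, 5.60 and 5.55 and the MxM males at 6.30, 6.41 and 6.99. Both genotypes with a PWK/PhJ mother were thus above both genotypes with a LEWES/EiJ mother, with no overlap. Another member had a difference of -0.78 without passing the test. The larger of the 2 negative differences that passed was that of ENSMUSG00000026667 on chromosome 1. Its values were 6.06, 6.05 and 5.84 in MxD and 6.56, 6.61 and 6.42 in DxM, a difference of -0.55 (SE 0.09, adjusted p = 0.0047). In this gene the DxD males (6.17, 6.08 and 6.11) lay just above the MxD males, and the MxM males (6.97, 6.80 and 7.0) were highest. The other gene lower in MxD was ENSMUSG00000027276 on chromosome 2, at 6.30, 6.34 and 6.15 in MxD and 6.76, 6.66 and 6.62 in DxM (-0.42, SE 0.09, adjusted p = 0.020). Its highest level was in DxD, at 6.99, 6.91 and 6.95, and its MxM values of 6.42, 6.36 and 6.68 overlapped those of DxM.

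The sterile hybrid was next compared with all fertile genotypes. In 4 somatic genes MxD was higher than DxM, DxD and MxM at the adjusted threshold, and in 0 it was lower than all of them, beside 1.86% and 1.94% of all genes. The MxD males are common to these 3 comparisons. At an unadjusted limma p under 0.05 the counts were 15 higher and 2 lower, beside 5.14% and 5.24% of all genes, and by the methods' t-test with adjustment they were 0 and 0. The count of 4 became 17 with the replicate block, beside 4.9% of all genes, and 11 without MxM replicate 3. It was 2 without DxD replicate 2, MxM replicate 2, DxM replicate 1, DxM replicate 3 or MxD replicate 3, and 1 without DxM replicate 2. The count of 0 lower genes became 1 without MxD replicate 1.

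The 4 genes lay on chromosomes 1, 2 and 3. ENSMUSG00000027955 on chromosome 3 had the largest mean difference from the fertile genotypes, 0.61. Its MxD males stood at 5.44, 5.61 and 5.74. The DxD males stood at 4.65, 5.08 and 5.17, the MxM males at 4.87, 5.13 and 5.27 and the DxM males at 5.08, 4.88 and 4.81. The 3 fertile genotypes overlapped one another in this dim gene, and every MxD male was above every fertile male. The adjusted p was 0.020 against DxM, 0.0078 against DxD and 0.023 against MxM. ENSMUSG00000027444 on chromosome 2 had values of 8.59, 8.83 and 8.76 in MxD, against 8.02, 8.11 and 7.99 in DxM and 8.07, 8.02 and 8.08 in DxD. Its MxM males had 8.23, 8.19 and 8.54, so that MxM replicate 3 came near the lowest MxD male without overlap. The difference from DxM was 0.69 (SE 0.10, adjusted p = 0.0025). The 2 remaining genes are both on chromosome 1 and had mean differences of 0.42 and 0.41, with a largest adjusted p of 0.045 and 0.028. In the first of these the MxD males (7.69, 7.61 and 7.61) were above the DxM males (7.39, 7.33 and 7.39), which in turn were above the DxD males (7.19, 7.03 and 7.09) and the MxM males (7.26, 7.09 and 7.15). For this gene the call against DxM was lost in 15 of 20 alternatives, with adjusted p between 0.0080 and 0.17. The second gene of chromosome 1 lost it in 9 of 19, with adjusted p up to 0.29. In ENSMUSG00000027955 the calls against DxM and MxM were each lost in 6 of 19, with adjusted p up to 0.21 and 0.17. In ENSMUSG00000027444 they were lost in 2 and 3 of 20, with adjusted p up to 0.19 and 0.20.

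**Figure D2:**
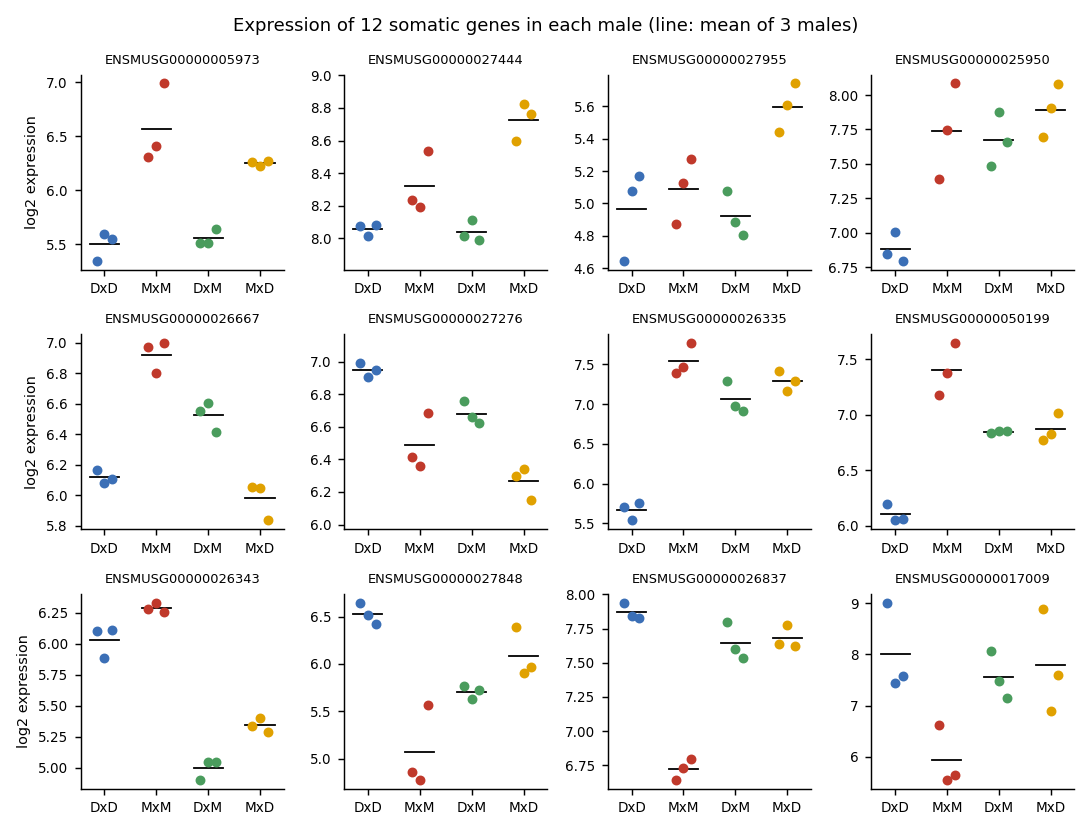
Log2 expression (vertical axes, each with its own range) of 12 somatic genes in the 12 males, grouped by genotype, with 1 point per male in the order of replicates 1, 2 and 3 and a line at the mean of 3 males. In ENSMUSG00000027955 every MxD male is above every fertile male, and in ENSMUSG00000026343 both hybrids are below both within-species crosses. In ENSMUSG00000017009 replicate 1 is the highest male of each genotype.

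Without a test, the same was counted by overlap. In 15 somatic genes (10.6%) every MxD male exceeded all 9 fertile males, and in 3 (2.11%) every one was below them, where over all genes these shares were 5.47% and 5.57%. In the 15 genes the mean difference of MxD from the fertile genotypes ran from 0.23 to 0.61 with a median of 0.42. The DxD males were above the 9 others in 9 genes (6.34%, 9.27% of all genes) and below them in 20 (14.1%, 9.41%). The MxM males were above the others in 12 genes (8.45%, 9.76%) and below in 8 (5.63%, 6.09%). The DxM males stood outside the others in 1 gene, below (0.704%, 0.786%), and in none above (0.386% of all genes). By the order of the genotype means, MxD was highest in 61 members (43.0%, 27.2% of all genes) and DxD lowest in 59 (41.5%, 31.1%). DxM was highest in 7 and lowest in 15. The shares for MxD above and DxD below thus exceeded those of all genes, and this excess was not tested. It was not particular to the somatic class. By the order of means, the mitotic genes of the same table rows had MxD highest in 63.6% and DxD lowest in 52.3%.

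Comparisons of MxD with the within-species crosses gave more calls. Against DxD, 40 members were higher and 12 lower in MxD. These 52 genes are 36.6% of the class, beside 31.0% of all genes (15.9% higher, 15.1% lower). The median difference was 0.17, and 90 members (63.4%) had the higher mean in MxD, against 48.9% of all genes. The mitotic genes leaned further the same way, with 39.7% called higher and 2.2% lower in MxD than in DxD. Against MxM, 32 members were higher and 18 lower in MxD. These 50 genes are 35.2% of the class, beside 30.3% of all genes (13.0% higher, 17.3% lower), and the median difference was 0.05, with 76 members (53.5%) higher in MxD. This median was 0.01 without MxM replicate 1, 0.02 without MxM replicate 2 and 0.09 without MxM replicate 3. The count against DxD was 34 without DxD replicate 3, and that against MxM was 29 without MxD replicate 3. By the methods' t-test with adjusted p the counts were 19 and 0 with unequal variances and 33 and 9 with equal variances. An unadjusted limma p under 0.05 was found for 69 and 60 members, beside 2940 and 2902 of all 7000 genes. The fit of MxD and MxM alone called 29 members.

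**Figure D3:**
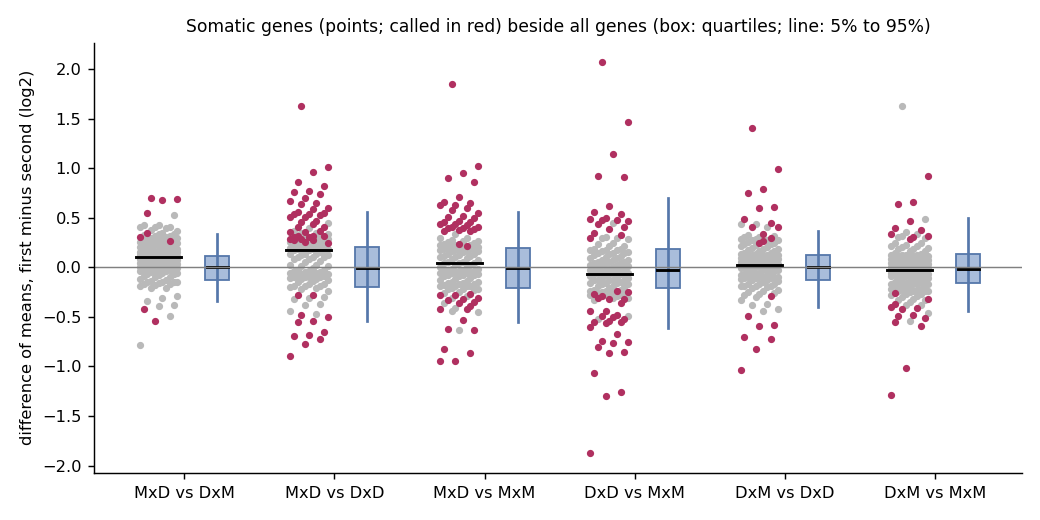
Differences between genotype means in log2 units (vertical axis) for 6 comparisons (horizontal axis), with 1 point per somatic gene, red where it passed the adjusted threshold, and a black line at the median. The box and line beside each give the quartiles and the range from 5% to 95% of all 7000 genes. The somatic median is 0.11 for MxD against DxM and 0.17 for MxD against DxD, while the medians of all genes are near 0.

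The largest difference between MxD and DxD was that of ENSMUSG00000026335 on chromosome 1. The DxD males stood at 5.70, 5.54 and 5.75 and the MxD males at 7.41, 7.16 and 7.29, a difference of 1.63 (SE 0.13, adjusted p = 1.1e-05). The DxM males (7.29, 6.98 and 6.92) and the MxM males (7.38, 7.47 and 7.77) were near MxD, so that DxD stood apart from all other genotypes. The second largest was ENSMUSG00000025950, also on chromosome 1, at 6.84, 7.0 and 6.80 in DxD and 7.69, 7.90 and 8.08 in MxD (1.01, SE 0.17, adjusted p = 0.0011). In this gene too DxD was below the other genotypes, whose values began at 7.39. In the other direction, ENSMUSG00000027777 on chromosome 3 had 6.20, 6.50 and 6.55 in DxD and 5.40, 5.67 and 5.50 in MxD (-0.89, SE 0.15, adjusted p = 0.0011). ENSMUSG00000025534 on chromosome 5 had 6.84, 6.92 and 6.87 in DxD and 6.10, 6.14 and 6.06 in MxD (-0.78, SE 0.08, adjusted p = 8.2e-05). In each of these 4 genes the DxM mean lay nearer to MxD than to DxD.

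Against MxM, the largest difference was that of ENSMUSG00000017009 on chromosome 2, at 8.89, 6.88 and 7.59 in MxD and 6.62, 5.55 and 5.65 in MxM (1.84, SE 0.53, adjusted p = 0.022). This gene varied more within genotypes than any other member in DxD, MxM and MxD. Replicate 1 was the highest male in every genotype, with 9.01 against 7.45 and 7.57 in DxD and 8.06 against 7.48 and 7.15 in DxM. ENSMUSG00000027848 on chromosome 3 stood at 6.39, 5.90 and 5.97 in MxD and 4.86, 4.77 and 5.57 in MxM (1.02, SE 0.19, adjusted p = 0.0023). Its DxD males were highest, at 6.65, 6.52 and 6.43, and its DxM males had 5.77, 5.63 and 5.72. In the other direction, ENSMUSG00000026343 on chromosome 1 had 5.34, 5.40 and 5.29 in MxD and 6.28, 6.33 and 6.25 in MxM (-0.94, SE 0.08, adjusted p = 1.9e-05). ENSMUSG00000026667, described above for the hybrids, had a difference of equal size (-0.94, SE 0.09, adjusted p = 3.3e-05).

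**Figure D4:**
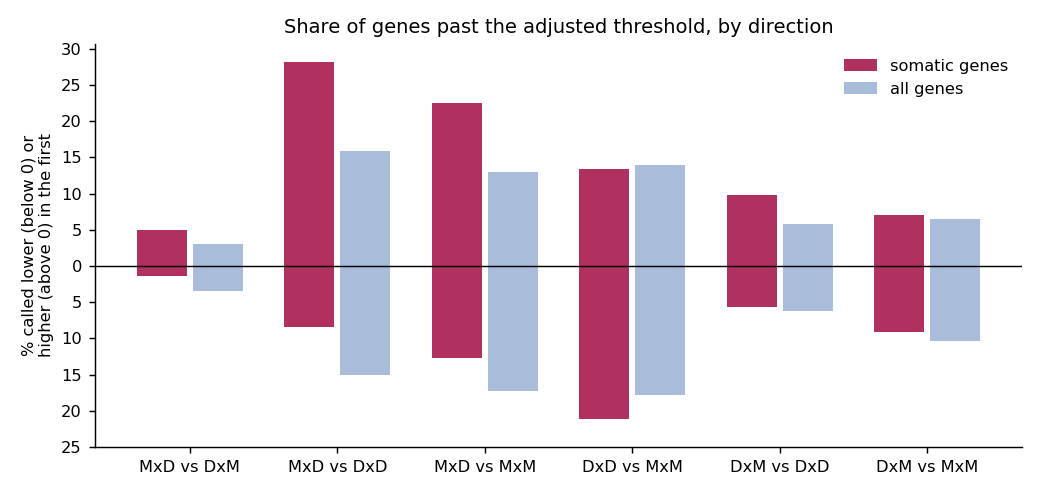
Share of genes past the adjusted threshold in percent (vertical axis; upward for higher and downward for lower in the first genotype named) in 6 comparisons (horizontal axis), for the 142 somatic genes and for all 7000 genes. For MxD against DxD the somatic bars reach 28.2% upward and 8.45% downward, and those of all genes 15.9% and 15.1%.

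Expression of somatic genes was compared between the species in DxD and MxM. In DxD, 19 members were higher and 30 lower than in MxM. These 49 genes are 34.5% of the class, beside 31.9% of all genes (14.0% higher, 17.8% lower), and the median difference was -0.06. This median was -0.03 without DxD replicate 1 and -0.04 without MxM replicate 3. By the methods' t-test with adjusted p, 6 members were called with unequal and 25 with equal variances. ENSMUSG00000017009 had the largest positive difference (2.07, SE 0.53, adjusted p = 0.012), followed by ENSMUSG00000027848 (1.46, SE 0.19, adjusted p = 1.4e-04), with the values of each male as given above. ENSMUSG00000026335 had the largest negative difference (-1.88, SE 0.13, adjusted p = 1.0e-06). The next was ENSMUSG00000050199 on chromosome 2, at 6.20, 6.05 and 6.06 in DxD and 7.18, 7.38 and 7.65 in MxM (-1.30, SE 0.11, adjusted p = 6.7e-06). Its hybrids lay between the species and beside each other, at 6.83, 6.86 and 6.86 in DxM and 6.77, 6.83 and 7.02 in MxD.

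The fertile hybrid differed in fewer somatic genes from either species. Against DxD, 14 members were higher and 8 lower in DxM, 15.5% of the class beside 12.1% of all genes (5.84% higher, 6.21% lower). Against MxM, 10 were higher and 13 lower, 16.2% beside 16.9% of all genes (6.51% higher, 10.4% lower). The median differences were 0.03 and -0.03. Leaving out 1 male gave medians between 0.0033 (without DxD replicate 1) and 0.06 (without DxD replicate 3) against DxD, with 0.05 without DxD replicate 2, 0.06 without DxM replicate 1 and 0.01 without DxM replicate 2. Against MxM they were -0.06 without MxM replicate 1, -0.0066 without MxM replicate 3 and -0.01 without DxM replicate 1. By the methods' t-test with adjusted p and unequal variances, 7 members were called against DxD and 0 against MxM. Against MxM, equal variances gave 3 and the fit of these genotypes alone gave 9. An unadjusted limma p under 0.05 was found for 41 members, beside 2068 of all 7000 genes. The count against DxD was 12 without DxD replicate 2 and 14 without DxD replicate 3 or DxM replicate 2. The count against MxM was 15 without MxM replicate 2, 12 without DxM replicate 1 and 13 without DxM replicate 2 or 3. ENSMUSG00000026335 was again the gene with the largest positive difference from DxD (1.40, SE 0.13, adjusted p = 3.8e-05). ENSMUSG00000026837 on chromosome 2 had the largest positive difference from MxM among the genes called, at 7.79, 7.60 and 7.54 in DxM and 6.64, 6.73 and 6.80 in MxM (0.92, SE 0.08, adjusted p = 4.2e-05). In this gene MxM stood below all other genotypes, with DxD at 7.94, 7.84 and 7.82 and MxD at 7.64, 7.77 and 7.62. Its difference was thus the counterpart of that of ENSMUSG00000026335, in which DxD stood below the rest.

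ENSMUSG00000026343 was the gene with the largest negative difference of DxM from both species. Its DxM males stood at 4.90, 5.05 and 5.04, against 6.10, 5.89 and 6.11 in DxD (-1.04, SE 0.08, adjusted p = 8.2e-06) and 6.28, 6.33 and 6.25 in MxM (-1.29, SE 0.08, adjusted p = 3.0e-06). The MxD males, at 5.34, 5.40 and 5.29, were below both species as well (adjusted p = 1.1e-04 against DxD) and above DxM (0.34, SE 0.08, adjusted p = 0.023). The call against DxM was lost in 9 alternatives, with adjusted p up to 0.22. It is 1 of the 7 genes counted as higher in the sterile than in the fertile hybrid, although its level in both hybrids was below that of either species. The males of the 4 genotypes did not overlap in this gene, and their order from low to high was DxM, MxD, DxD and MxM.

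The place of the hybrids between the species was then described for the 49 members called between DxD and MxM. The DxM mean lay between the species means in 42 of them (85.7%, against 83.2% of 2230 such genes in the series). It lay above both in 2 (4.08%, against 6.23%) and below both in 5 (10.2%, against 10.6%). The MxD mean lay between them in 29 (59.2%, against 66.5%), above both in 12 (24.5%, against 14.1%) and below both in 8 (16.3%, against 19.4%). On a scale from 0 at the DxD mean to 1 at the MxM mean, the median place was 0.52 in DxM and 0.57 in MxD. In the 2230 genes it was 0.45 and 0.51. In the 30 members with higher expression in MxM, the MxD mean was nearer to MxM in 22 and the DxM mean in 18. Of 1247 such genes in the series these were 614 and 556. In the 19 members with higher expression in DxD, the MxD mean was nearer to DxD in 13 and the DxM mean in 11. Of 983 such genes in the series these were 462 and 547. The means of DxD and MxM enter both axes of this description, and no test was made of it.

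**Figure D5:**
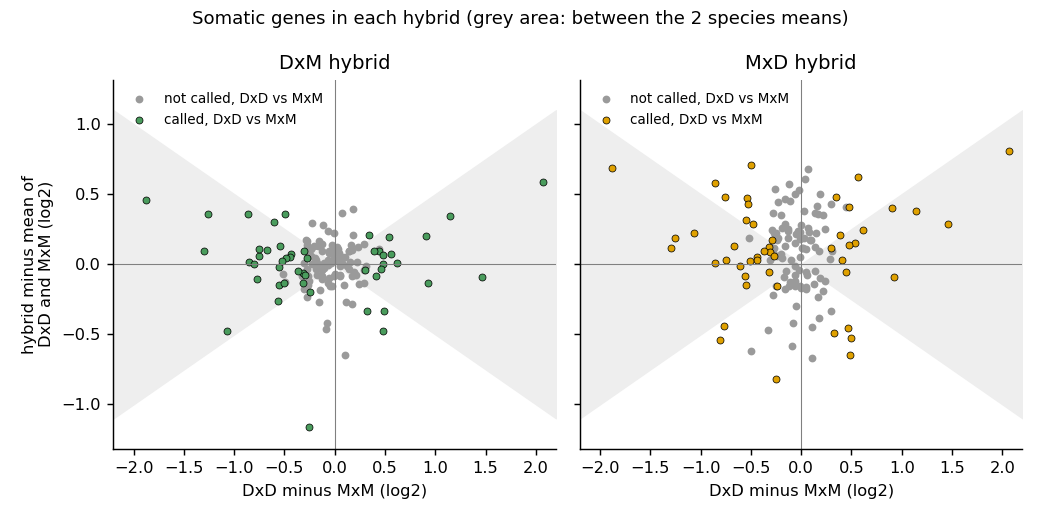
Difference of each hybrid from the mean of DxD and MxM (vertical axes, log2) against the difference between DxD and MxM (horizontal axes, log2) for the 142 somatic genes, DxM at left and MxD at right, with genes called between the species in colour. The grey area holds genes whose hybrid mean lies between the species means, 42 of the 49 coloured genes in DxM and 29 in MxD.

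The median differences were also taken at separate levels of expression. In the dimmest part of the genes, the 85 somatic members had medians, for MxD minus each fertile genotype, of 0.07 (DxM), 0.11 (DxD) and -0.07 (MxM). In the part above it, the 38 members had medians of 0.16, 0.24 and 0.18, and the MxD mean exceeded the DxM mean in 33 of them (86.8%), against 50.2% of all genes of that part. None of these 38 was called lower in MxD than in DxD, where 13 were called higher, beside 304 higher and 273 lower of all 1750 genes of that part. In the dimmest part 20 were called higher and 11 lower, beside 252 and 304 of 1750. The 57 members outside the dimmest part had medians of 0.16, 0.24 and 0.16 in the same order. The difference between the parts was not tested.

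By chromosome, the somatic medians for MxD against DxM were 0.13, 0.12, 0.11 and 0.15 on chromosomes 1 to 4 and -0.03 on chromosome 5. The 22 members on chromosome 5 also had negative medians for MxD against DxD (-0.10) and against MxM (-0.07), and 5 of the 6 members called there against DxD were lower in MxD, beside 39 higher and 41 lower over all 197 rows of that chromosome. On chromosomes 1 to 4, in order, 10, 10, 11 and 8 members were called higher in MxD than in DxD, and 2, 3, 1 and 1 lower. Over all rows of these chromosomes 65, 89, 74 and 68 were higher and 60, 87, 44 and 58 lower. All listed genes of chromosome 5 had a median of 0.01 for MxD against DxM. On chromosome 1, 16 of 26 members (61.5%) were called between MxD and MxM, 9 higher and 7 lower in MxD, against 32.8% of the 415 rows of that chromosome. The chromosomes were compared after their values were seen, and no test of a difference between them was made.

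Across the 6 comparisons, 84 of the 142 somatic genes (59.2%) were called at least once and 58 in none, beside 53.7% of all genes called at least once. Where the groups of males are small, a gene that was not called is not shown to be equal between genotypes. The replicates are separate males, and the p-values set each difference against the spread between them. The main fit left out the replicate number, so that this spread includes any effect shared by males of the same number. With the number as a block, 33 members in place of 9 were called for MxD against DxM. Those higher in MxD in all 3 comparisons were 17 in place of 4.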

How the data were processed

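Each of the 12 males, 3 per genotype, was hybridised to its own Affymetrix Mouse Genome 430 2.0 array, with RNA of the whole testis. For each Ensembl gene as defined by BRAINARRAY (version 11), the authors combined its probes with PLIER. After removing genes not detected in every male they applied quantile normalization, and the log2 values they deposited were used as they are. Since the probes were made for laboratory mice, whose genome is closer to M. domesticus, M. musculus transcripts can bind some of them less well. There is no read depth on an array, and precision is limited by the number of arrays. Chromosomes and cell type classes come from the study's supplementary gene table (Ensembl version 52, NCBI build 37), of which 1997 rows were used and no values. Columns of that table with the authors' own comparisons were not used.

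The fit (limma 3.58.1, R 4.3.3) took in all 7000 genes and all males, with a mean for each genotype and 1 spread for the 4 genotypes. It had no term for the replicate number. Tests were two-sided, and p-values were adjusted after Benjamini-Hochberg over all genes, with a call at 5%. The members, gene lists and tests were chosen with earlier results of these data known. Genes that could be named were the members with the largest differences in each direction among those called in each comparison, and those higher or lower in MxD than in every fertile genotype. Since the numbers are not paired with gene names, at most 2 numbers per direction and comparison were printed, and values are also given of genes already named elsewhere. Lists of named genes, promoters and proteins were not analysed here.

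The study's own t-tests used an unadjusted p, with false discovery rates estimated apart, so that adjusted counts from them here are not the study's. Alternatives were the test of the study's methods with unequal and equal variances, the unadjusted p, fits of 2 genotypes, the replicate number as a block, no use of the dimmest 25% of genes, a trended and robust prior, another centring and each male left out. For the genes higher or lower in MxD than in all fertile genotypes, for Cyp17a1 and for ENSMUSG00000026343 in MxD against DxM and DxD they were chosen after seeing the data. To check whether replicate numbers pair males, each male's deviations from its genotype means were correlated over genes with those of the males of the same number. Every correlation was above 0.1 between MxD and each fertile genotype and between DxD and DxM (0.15 to 0.76), so that numbers count as pairing these males. Between DxD and MxM the lowest was 0.07, and between MxM and DxM it was -0.05. The sources used here do not say what the numbers mark. The procedure was tested on simulated data in which 200 of 7000 genes were changed in MxD. In the comparisons with MxD it recovered 57.0% to 59.5% of changes of 0.5 log2 units and 93.5% to 95.0% of changes of 1. These data held no effect shared by males of the same number, unlike the measured values. All other genes had the same mean in every genotype, and the changed genes were drawn from all 7000. The recovery is thus not that of the somatic class, whose median SE was 0.11 against 0.10 over all genes. Calls among the unchanged genes are not given here. Python 3.11.15 and matplotlib 3.10.9 made the figures.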

Additional observations from a re-analysis of the deposited data

How the results depend on the processing

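Males number 3 per genotype, and leaving out 1 male moved many counts of somatic genes called. Leaving out each male in turn gave 3 to 19 genes called for MxD against DxM, 34 to 62 for MxD against DxD, 29 to 48 for MxD against MxM, 39 to 57 for DxD against MxM, 12 to 28 for DxM against DxD and 12 to 32 for DxM against MxM. The males behind the moves of over 1.5 times are named beside the results. Counts over all genes are not given for these fits, so a move of the class cannot be told from one of the whole series. The genes higher in MxD than in every fertile genotype numbered 1 to 11, and those lower 0 to 1. Median differences ranged from 0.08 to 0.13, 0.13 to 0.20, 0.01 to 0.09, -0.08 to -0.03, 0.0033 to 0.06 and -0.06 to -0.0066 in the same order, with no change of sign.

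By the methods' gene-by-gene test with unequal variances and adjusted p, the counts in that order were 0, 19, 0, 6, 7 and 0, and with equal variances they were 0, 33, 9 and 25 in the first 4 and 3 for DxM against MxM. The genes higher in MxD in all 3 comparisons numbered 0 by both. At an unadjusted limma p the counts were 39 for MxD against DxM and 41 for DxM against either species, and 15 higher and 2 lower in all 3. Over all 7000 genes they were 1528 for MxD against DxM, 1785 for DxM against DxD and 2068 for DxM against MxM. Fitting only the 2 genotypes compared gave 29 for MxD against MxM, 9 for DxM against MxM and 2 higher in all 3. Without the dimmest 25% of genes, which leaves 57 members, the counts were 3, 22, 19, 17, 7 and 5. Shares over all genes are not given for this setting. The median differences of MxD were 0.16, 0.24 and 0.16 against DxM, DxD and MxM.

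With the replicate block, the counts moved to 33 for MxD against DxM, 37 for DxM against MxM, whose numbers do not pair the males, and 17 for genes higher in MxD in all 3. The block moved no other count by over 1.5 times. For DxM against MxM the share of all genes with the block is not given. For single genes, 40 differences were recomputed, and none of these changed direction in the alternatives run, of which the one without the dimmest 25% of genes covers 14. Of their 774 values, 664 kept their side of the threshold and 107 lost the call, 29 of them under the test with unequal variances and 18 under that with equal variances. The other 3 are Cyp17a1 in MxD against DxM, which passed in the fit of the 2 genotypes (adjusted p = 0.0071) and without MxM replicate 3 (adjusted p = 0.030), and had an unadjusted p under 0.05. The cause was not tested.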
